A study of Schizosaccharomyces pombe with 7 samples.

Results

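The outer repeats of centromere 2 are the 2 blocks of repeated DNA on the left and right of the centromere core on chromosome II of fission yeast (Schizosaccharomyces pombe). Their members were the 60-base array positions named on chromosome 2 whose deposited coordinates both lay within 1603311–1619960 (left, 16650 bases) or 1631931–1645670 (right, 13740 bases). There were 585 of them, 311 on the left and 274 on the right, of 43993 positions on the array. The rule uses place alone and no measured value, although it was set with earlier results of these data known. They followed each other every 50 bases, except for 1 step of 1100 bases on the left. The sources used here do not name the genome build behind these coordinates. Matched to the GC content of the ASM294v3 reference, the left block fell at II: 1602411–1619060 and the right one at 1630131–1643870, so each side has its own shift (900 and 1800 bases). The input signal correlated at 0.66 (left) and 0.627 (right) with its quadratic fit on GC content at these shifts. At the other shifts tried, more than 60 bases away, the correlation was at most 0.398 and 0.386.

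The study measured newly assembled nucleosomes on 7 tiling arrays of 2 colours: 2 of fft3Δ, 1 of clr3Δ, 1 of the double mutant fft3Δ clr3Δ and 3 of wild type. All strains carried a FLAG-tagged histone H3 that is off in 8% glucose, and all were held in S phase by 15 mM hydroxyurea for 4 h in minimal medium at 30 °C. A change to 4% sucrose, still with the drug, induced the tagged H3 for 2 h before fixation in 1% formaldehyde. DNA pulled down with the tag (ChIP) was labelled red and whole-cell extract DNA (input) green on every array, with no dye swap. Slide 1 held fft3Δ 1 and wild type 1, slide 2 held fft3Δ 2 and wild type 2, and slide 3 held clr3Δ, the double mutant and wild type 3. Whether repeat arrays of 1 genotype stem from separate cultures is not stated in the labels, so every p-value measures the spread between arrays only, which may be technical. The fft3 and clr3 genes have no positions among those analysed here, so the deletions were not checked. Spots well above background made up at least 578 of the 585 members in each channel of each array, no spot was saturated, and 579 to 585 members were kept per array after removal of marked spots.

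Fission yeast centromeres have a core, where the H3 variant Cnp1 builds the kinetochore, between inverted outer repeats that are packed in heterochromatin. The outer repeats are transcribed at a low level, their RNA is cut by the RNA interference machinery, and the methyltransferase Clr4 marks H3 there so that HP1 proteins such as Swi6 bind. Clr3 is the histone deacetylase of the silencing complex SHREC, and Fft3 is a Snf2-family chromatin remodeller, whose part in nucleosome turnover the series asks about. Because of the repeats, a value here mixes the loci that share its sequence: the central 30 bases of 554 of the 585 members (94.7%) occurred more than once in the reference. They were found on chromosome I for 427 members, on chromosome III for 387, and on both sides of centromere 2 for 495.

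The following stretches show why the values cannot be given to 1 locus, and each belongs to a gene or edge named later. The first bases of SPNCRNA.5270, the gene with the largest difference between clr3Δ and wild type, were found 6 times in the reference (II: 1634960–1635139, plus strand). The best matches on the left of centromere 2 (1612743–1612922, minus strand), on chromosome I (3786116–3786295) and on chromosome III (1108537–1108716) had 0 different bases, so no base is in capitals. The first bases of SPNCRNA.5263 (II: 1617896–1618075, minus strand), the gene with the largest difference between the double mutant and clr3Δ, were found 2 times. Their other copy was the mirror image on the right (1630340–1630519, plus strand), again with 0 different bases. The third stretch opens the longest run found once, 872 bases at the outer end of the right side (II: 1642999–1643870), partly under SPNCRNA.5277. The tRNA gene SPBTRNAALA.09 lies near the inner left edge (II: 1618440–1618513, minus strand) and was found 9 times. Its anticodon, found by a script as the middle of the 7-base loop of a 5-base stem, is in capitals. All are RefSeq sequence of ASM294v3, read 5′ to 3′.
SPNCRNA.5270: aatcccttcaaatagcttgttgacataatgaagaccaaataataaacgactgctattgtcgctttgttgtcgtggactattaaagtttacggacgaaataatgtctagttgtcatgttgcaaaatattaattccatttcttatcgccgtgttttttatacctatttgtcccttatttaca
SPNCRNA.5263: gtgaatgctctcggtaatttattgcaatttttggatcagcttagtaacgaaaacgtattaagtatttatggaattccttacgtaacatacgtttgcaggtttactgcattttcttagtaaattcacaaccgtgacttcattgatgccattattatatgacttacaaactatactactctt
found once: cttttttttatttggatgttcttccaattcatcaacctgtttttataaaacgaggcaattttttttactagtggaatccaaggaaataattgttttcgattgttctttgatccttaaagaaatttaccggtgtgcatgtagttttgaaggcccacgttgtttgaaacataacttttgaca
SPBTRNAALA.09: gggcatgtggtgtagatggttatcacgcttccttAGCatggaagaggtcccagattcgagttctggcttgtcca

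New H3 was low over the outer repeats in wild type, close to that level in fft3Δ, near the array median in clr3Δ, and above the array median in the double mutant. The measure is the log2 ratio of ChIP to input, minus the median of the array, averaged over the members. It was −1.07 and −1.39 in fft3Δ, −0.18 in clr3Δ, 0.61 in the double mutant, and −1.42, −1.46 and −1.31 in wild type. On a linear scale the repeats stood at 0.476 and 0.383 of the array median in fft3Δ, 0.882 in clr3Δ and 1.53 in the double mutant, against 0.373, 0.362 and 0.405 in wild type. Of the members, 3 and 0 lay above the array median on the fft3Δ arrays, 226 in clr3Δ and 554 in the double mutant, against 3, 1 and 0 on the wild-type arrays.

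Between fft3Δ and wild type the mean differed by 0.17 ± 0.13 (SE), with p = 0.3 in an exact permutation test (two-sided) over 5 arrays. Its 10 splits allow no p below 0.1, so that test could not pass at 0.05. The first fft3Δ array lay above all wild-type arrays and the second among them. On slide 1 alone the difference came to 0.35, on slide 2 alone to 0.08, and to 0.22 when slide entered as a block. Quantile normalization turned it to −0.02.

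clr3Δ stood 1.22 ± 0.17 above wild type (SE from the pooled spread of the replicated genotypes), a 2.32-fold difference, and 1.12 above wild type 3 on the same slide. The double mutant stood 2.01 ± 0.17 above wild type, a 4.02-fold difference, and 1.91 above wild type within its slide. Each mutant is 1 array, so its own spread was not measured. The double mutant also exceeded clr3Δ, by 0.79 ± 0.21, and exceeded fft3Δ by 1.84 ± 0.18. Subtracting the difference of fft3Δ and wild type from that of the double mutant and clr3Δ left an interaction of 0.62 ± 0.24 in the ratio, or 0.57 with slide as a block. In the single channels it was 0.11 ± 0.57 in ChIP (−0.07 with the block) and −0.56 ± 0.50 in input (−0.70 with the block). The core had a ratio interaction of 0.62 ± 0.50, and that of the repeats minus the core was −0.00 ± 0.36.

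**Figure D1:**
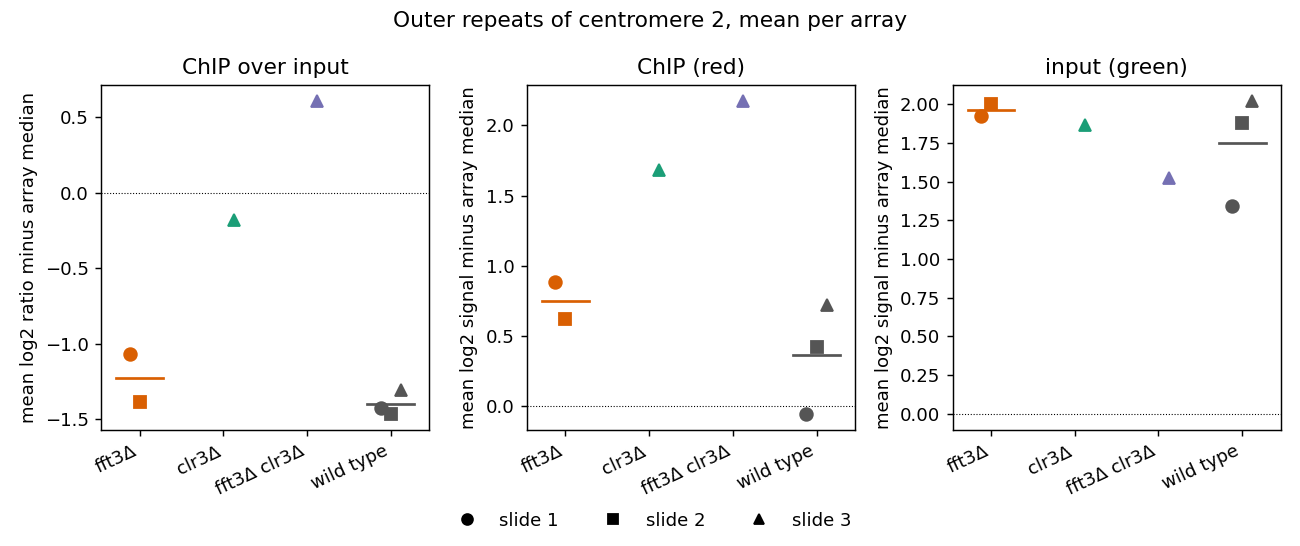
Mean over the outer repeats on each array of the log2 ratio of ChIP to input, the log2 ChIP signal and the log2 input signal, each minus the array median (dotted line at 0). Points are arrays, shapes are slides and bars are means of the replicated genotypes. In the left panel the double mutant is at 0.61 and clr3Δ at −0.18, above every fft3Δ and wild-type array.

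Both channels bear on these ratios. The repeats were bright in input. The mean log2 input signal above the array median was 1.92 and 2.00 in fft3Δ, 1.87 in clr3Δ and 1.52 in the double mutant, against 1.34, 1.88 and 2.02 in wild type. Wild type 1 was the lowest array and the double mutant the next, and all other arrays lay between 1.87 and 2.02. In the ChIP channel the means were 0.88 and 0.62 in fft3Δ, 1.68 in clr3Δ and 2.18 in the double mutant, against −0.05, 0.42 and 0.72 in wild type. clr3Δ and the double mutant were above every other array in ChIP. The double mutant differed from clr3Δ by 0.49 ± 0.48 in ChIP signal and by −0.35 ± 0.42 in input signal, each centred on its own median, so that both channels entered the 0.79 of the ratio. Between clr3Δ and wild type the input differed by 0.12 ± 0.34 and the ChIP signal by 1.32 ± 0.39. On slide 3 clr3Δ differed from wild type 3 by −0.15 in input and 0.96 in ChIP. The double mutant differed from wild type 3 by −0.50 in input and 1.45 in ChIP. Between fft3Δ and wild type, input differed by 0.21 ± 0.27 (exact permutation p = 0.7) and ChIP by 0.39 ± 0.31 (p = 0.4). Within slide 1, which holds the wild-type array with the low input over the repeats, these were 0.58 and 0.94. Within slide 2 they were 0.12 and 0.20. The part of the low input of wild type 1 in these results was not tested. In all, 66 permutation tests of fft3Δ against wild type were made over regions, positions and channels, and the smallest adjusted p was 0.872.

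In windows of 1 kb counted from the outer edges, 30 windows held at least 5 members, 16 on the left and 14 on the right. limma, fitted over all 2203 windows of the array, called 21 of the 30 higher in clr3Δ than in wild type (Benjamini-Hochberg adjusted p under 0.05) and 0 lower. Over the whole array 30 windows (1.36%) were called higher, so 21 of these 30 lay in the outer repeats. All 30 windows of the repeats had a higher value in clr3Δ than on any wild-type array, where 21.7% of all windows did. The differences of the 21 called windows ran between 1.14 and 1.45, and those of the 9 others between 0.87 and 1.32. Of these 9 windows, 7 were among the 11 within 6 kb of the inner edges and 2 were the outermost window of each side. Without wild type 3, the wild-type array on the slide of clr3Δ, 0 windows were called (smallest adjusted p = 0.0623), with a median difference of 1.29 over the 30.

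In the double mutant limma called all 30 windows higher than wild type, with adjusted p-values between 3.45e-04 and 0.0288 and differences between 1.48 and 2.28. Over the array 78 windows (3.54%) were called higher and 18 lower. All 30 lay above every wild-type array, as 23.6% of all windows did. Against fft3Δ, 29 of 30 windows were called (1.91% of all windows), the exception being the outermost one on the left. Leaving out any 1 of the replicated arrays left 29 or 30 calls against wild type.

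limma called 0 of 30 windows between fft3Δ and wild type, with differences between 0.04 and 0.27, all above 0, and 0.0% of all windows were called higher. At an unadjusted p under 0.05, 61 windows of the array were higher and 12 lower, 0 of them in the repeats. In 9 of the 30 windows both fft3Δ arrays exceeded every wild-type array, where 9.08% of all windows did so. The double mutant exceeded clr3Δ in all 30 windows by 0.36 to 1.22, but limma called 0 of them, with 0.0% of all windows called higher. The interaction of the ratio was positive in all 30 windows, between 0.25 and 1.10, with 0 called and 0.0% called over the array. With loess it was positive in 21 windows and negative in 9. In ChIP alone it was positive in 19 windows and negative in 11 (median 0.06), and in input it was negative in all 30 (median −0.57). For fft3Δ the largest differences lay 1 to 2 and 2 to 3 kb from the right edge and 3 to 4 kb from the left one, with 0.27 each. Its smallest lay 11 to 12 and 9 to 10 kb from the right edge and 11 to 12 kb from the left, with 0.04, 0.07 and 0.06 (limma adjusted p = 0.996 for each). With quantile normalization 11 windows were called between the double mutant and clr3Δ (0.499% of all windows).

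The single channels were noisier. In ChIP signal alone limma called 0 windows of the repeats higher in clr3Δ (0.0% of all windows), 21 higher in the double mutant against wild type (3.68%) and 1 against fft3Δ (0.499%). With slide as a fixed replicate block, a fit with 1 residual degree of freedom, calls became more frequent over the whole array. Against wild type 24 windows of the repeats were then called higher in fft3Δ (7.08% of all windows), 26 in clr3Δ (7.4%) and 30 in the double mutant (24.3%). The double mutant had 18 calls against clr3Δ (21.0%) and 26 against fft3Δ (19.6%). With slide as a random block the counts were 8 for fft3Δ (2.27%), 14 for clr3Δ (2.5%) and 27 for the double mutant (12.5%) against wild type, and 6 against clr3Δ (9.4%) and 9 against fft3Δ (4.68%) for the double mutant. The 21 calls of the double mutant fell to 0 without either fft3Δ array. Without wild type 3, the calls of clr3Δ against wild type became 20. In input alone limma called 0 windows of the repeats in any comparison. The median input difference of the double mutant over the windows was −0.27 from wild type and −0.51 from fft3Δ, with 5 and 3 windows above 0. With the fixed block, limma called 3 windows lower in input in the double mutant than in wild type (0.953% of all windows) and 13 lower than in fft3Δ (0.772%), and with the random block it called 0.

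**Figure D2:**
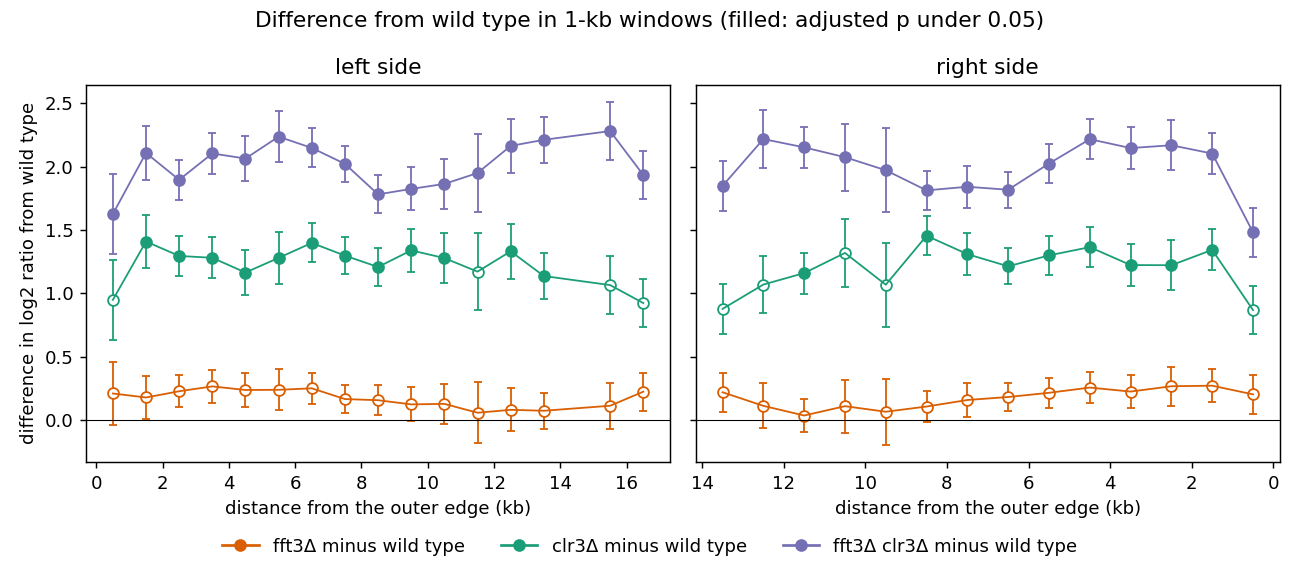
Difference in log2 ratio from wild type of each genotype in windows of 1 kb, against the distance from the outer edge, with the core between the panels. Points are window means, bars are SE, and filled points passed limma. The double mutant runs between 1.48 and 2.28, clr3Δ between 0.87 and 1.45, and fft3Δ between 0.04 and 0.27.

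Across the repeats the ratio was lowest next to the core and highest in the middle. Within 3 kb of the inner edges the ratio was −1.41 and −1.84 in fft3Δ, −0.67 in clr3Δ and 0.39 in the double mutant, against −1.83, −1.83 and −1.56 in wild type. Between 6 and 9 kb it was −0.91 and −1.12 in fft3Δ, 0.12 in clr3Δ and 0.70 in the double mutant, against −1.28, −1.09 and −1.17 in wild type. The 3 kb beside the core lay below the stretch between 6 and 12 kb on every array, with differences of −0.49 and −0.70 in fft3Δ, −0.73 in clr3Δ and −0.40 in the double mutant, against −0.51, −0.65 and −0.37 in wild type. Between 9 and 12 kb the double mutant had its highest value, 0.88, beside 0.01 in clr3Δ, −0.92 and −1.15 in fft3Δ, and −1.37, −1.27 and −1.21 in wild type. In the outer 12 to 17 kb the ratio was −0.98 and −1.29 in fft3Δ, −0.18 in clr3Δ and 0.54 in the double mutant, against −1.34, −1.44 and −1.29 in wild type. Input changed along the repeats too: in wild type it was 0.55, 1.43 and 1.54 above the array median within 3 kb of the core. It was 0.34, 1.12 and 1.05 between 3 and 6 kb, and 2.42, 2.65 and 3.01 between 6 and 9 kb. In ChIP alone the wild-type arrays had −1.25, −0.39 and −0.01 within 3 kb, and −1.02, −0.63 and −0.29 between 3 and 6 kb. Which of these bands was lowest in ChIP thus differed between arrays.

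By wild-type level the lowest windows were those 12 to 13 kb from the right outer edge and 15 to 16 and 16 to 17 kb from the left one, at −1.81 each. The highest were 2 to 3 kb from the right edge at −1.02, 9 to 10 kb from the left at −1.03 and 7 to 8 kb from the right at −1.08. In the window 15 to 16 kb from the left edge (1618511–1619320 in file coordinates, 16 positions) the ratio was −1.44 and −1.95 in fft3Δ, −0.75 in clr3Δ and 0.47 in the double mutant, against −1.95, −1.90 and −1.58 in wild type. It had the largest difference of the double mutant, 2.28 ± 0.23 (limma adjusted p = 9.35e-04), but clr3Δ did not pass there (1.07 ± 0.23, adjusted p = 0.0971). The window 12 to 13 kb from the right edge showed 2.22 for the double mutant and 1.07 for clr3Δ. These 2 windows also led the differences of the double mutant from clr3Δ, with 1.22 and 1.15.

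The largest difference of clr3Δ lay elsewhere, in the window 8 to 9 kb from the right edge (1636661–1637670 in file coordinates). With the shift of 1800 bases to the reference, this window lies over SPNCRNA.5270 and SPNCRNA.5271. There the ratio was −0.93 and −1.22 in fft3Δ, 0.27 in clr3Δ and 0.63 in the double mutant, against −1.25, −1.14 and −1.16 in wild type. The difference of clr3Δ was 1.45 ± 0.15 (limma adjusted p = 0.00884), and that of the double mutant from clr3Δ, 0.36, was the smallest of all windows. The next largest of clr3Δ lay 1 to 2 and 6 to 7 kb from the left edge, with 1.41 and 1.40. The smallest were the outermost window on the right (0.87), the innermost on the right (0.88) and the innermost on the left (0.92), and 0 of these passed. For the double mutant the smallest were the outermost windows, with 1.48 on the right and 1.63 on the left. In the outermost window on the right 17 of 20 positions were found once in the reference, and its ratio was −1.16 and −1.53 in fft3Δ, −0.68 in clr3Δ and −0.07 in the double mutant, against −1.50, −1.73 and −1.42 in wild type.

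**Figure D3:**
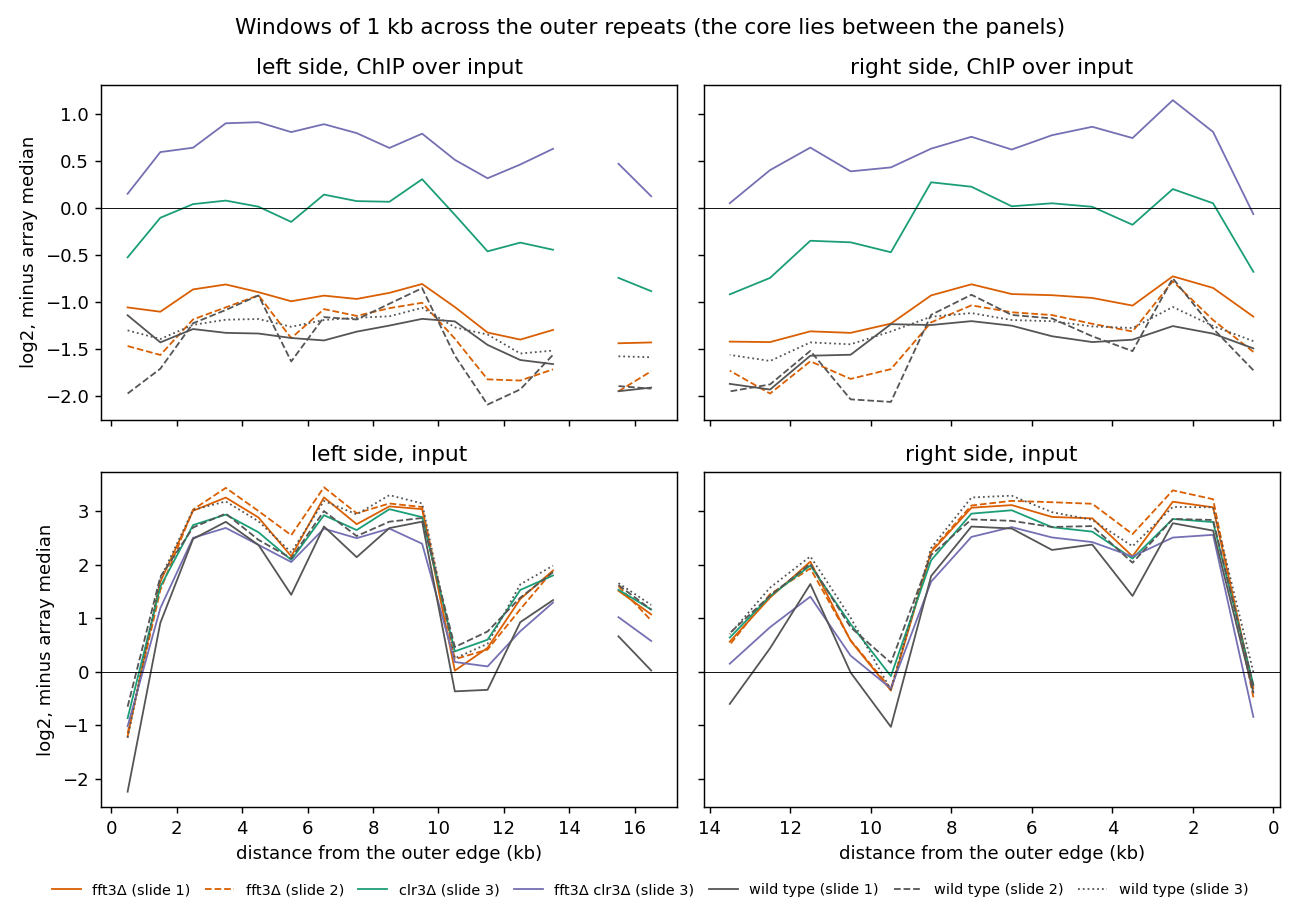
Log2 ratio of ChIP to input (top) and log2 input signal (bottom) in windows of 1 kb, minus the array median, against the distance from the outer edge, for each array. Lines break where a window held fewer than 5 positions. In the top panels the double mutant stays between −0.07 and 1.15 and wild type between −2.09 and −0.75.

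The left and right sides gave nearly the same means. The central bases of 495 of the 585 members occur on both sides. Both means, and the test of their difference below, therefore rest largely on the same DNA. On the left the ratio was −1.07 and −1.39 in fft3Δ, −0.17 in clr3Δ and 0.62 in the double mutant, against −1.42, −1.47 and −1.31 in wild type. On the right it was −1.07 and −1.38 in fft3Δ, −0.19 in clr3Δ and 0.60 in the double mutant, against −1.43, −1.45 and −1.30 in wild type. The left side exceeded the right by 0.02 ± 0.02 more than in wild type in both clr3Δ and the double mutant, and exact permutation of left minus right between fft3Δ and wild type gave p = 0.7. In all, 245 pairs of a left and a right position shared at least 40 of their 60 bases as mirror images. Across these pairs the ratio correlated at 0.777 and 0.911 in fft3Δ, 0.841 in clr3Δ and 0.524 in the double mutant, against 0.785, 0.919 and 0.623 in wild type. These are correlations across positions of 1 array, which are not independent and hybridise the same DNA. At members with at most 2 copies clr3Δ exceeded wild type by 0.24 more on the left than on the right and the double mutant by 0.40 more, a comparison chosen after seeing the data.

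Members found once had less new H3 than those with many copies on every array. At the 244 members with 7 or more copies the mean ratio, over those kept on each array, was −0.91 and −1.13 in fft3Δ, 0.03 in clr3Δ and 0.80 in the double mutant, against −1.34, −1.19 and −1.21 in wild type. At the 31 members found once it was −1.22 and −1.63 in fft3Δ, −0.58 in clr3Δ and 0.09 in the double mutant, against −1.49, −1.82 and −1.44 in wild type. The members found once therefore also stood higher in clr3Δ and the double mutant than on any wild-type array, by 1.01 ± 0.27 and 1.67 ± 0.27 from the wild-type mean. Of the 7 windows that hold such members (here with no minimum number), limma called 2 higher in clr3Δ (0.148% of all windows of such positions) and 7 in the double mutant (0.837%). The members found once lay mainly near the outer edges, with 17 in the outermost window on the right. On the left, 3, 6 and 2 lay 0 to 1, 1 to 2 and 2 to 3 kb from the outer edge. The copy classes therefore also compare unlike places. Across the 585 members the wild-type ratio correlated with the log2 number of copies (r = 0.532) and with distance from the inner edge (r = 0.446). It also correlated with GC content (r = 0.342) and with the input level (r = 0.456). Copy number, position, base composition and brightness thus move with the level. Their part in it was not tested.

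**Figure D4:**
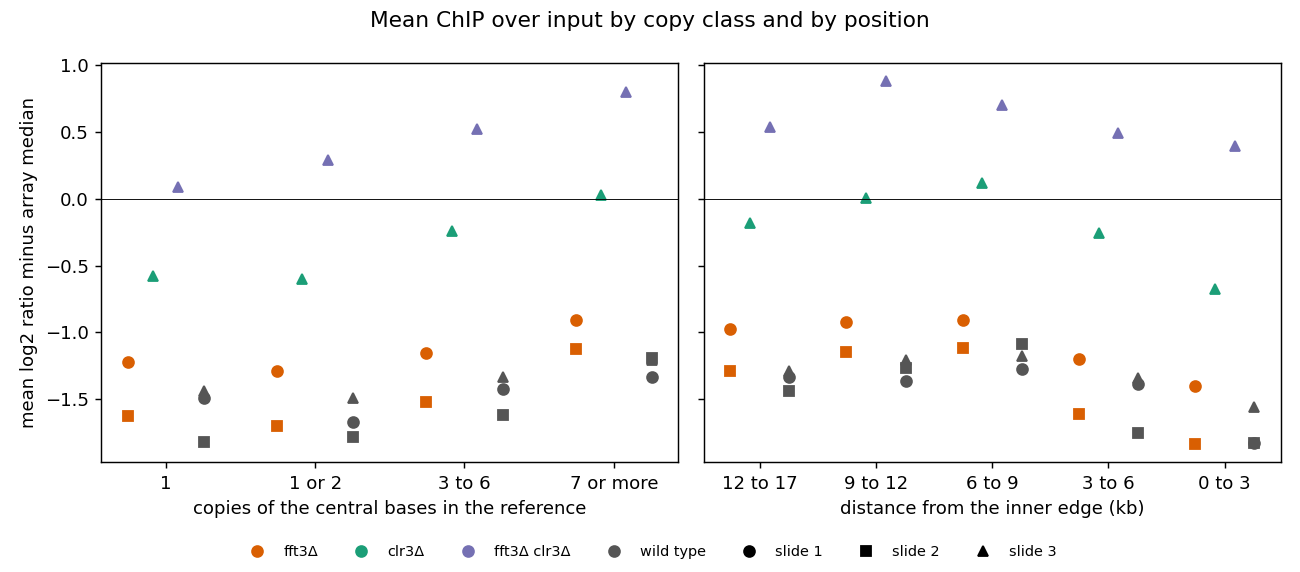
Mean log2 ratio of ChIP to input by number of copies of the central bases in the reference (left) and by distance from the inner edge (right). Points are arrays and shapes are slides. In every class the double mutant is highest and clr3Δ next.

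Annotation placed 35 genes with at least 2 positions in the outer repeats, 33 of them long noncoding RNA genes, 1 ncRNA gene and 1 tRNA gene; dg and dh elements are not named in it. The genes overlap on both strands and ChIP does not tell strands apart, so a value is the amount of new H3 on the DNA of a gene. limma over all 2171 genes called 26 of the 35 higher in clr3Δ (1.47% of all genes were) and 34 higher in the double mutant (2.86%), against wild type in each case. The median difference was 1.26 in clr3Δ and 2.04 in the double mutant, against −0.03 and −0.05 over all genes. Between fft3Δ and wild type 0 of 35 passed, with a median of 0.15; the largest were 0.26 at SPNCRNA.5274 and 0.25 at SPNCRNA.5276, and the smallest was 0.00 at SPNCRNA.5260. Tested singly, 320 of 572 members passed in clr3Δ (1.11% of all positions) and 551 in the double mutant (2.97%). The 320 calls fell to 0 without wild type 3 and without either fft3Δ array, while the double mutant had 539 to 564 calls when any 1 replicated array was left out.

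SPNCRNA.5270 (II: 1634960–1635318, 7 positions) had a ratio of −0.99 and −1.32 in fft3Δ, 0.28 in clr3Δ and 0.55 in the double mutant, against −1.27, −1.32 and −1.23 in wild type. clr3Δ exceeded wild type there by 1.56 ± 0.16 (limma adjusted p = 0.00349) and the double mutant by 1.82. SPNCRNA.5271, SPNCRNA.5259, SPNCRNA.362, SPNCRNA.5274 and SPNCRNA.5275 followed for clr3Δ, with 1.47, 1.39, 1.38, 1.36 and 1.36. Its smallest differences were at SPNCRNA.363 (0.49, 2 positions), SPNCRNA.5264 (0.95) and SPBTRNAALA.09 (1.00), which did not pass.

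SPNCRNA.5263 (II: 1617394–1618075, 9 positions), beside the core, had −1.48 and −1.98 in fft3Δ, −0.74 in clr3Δ and 0.47 in the double mutant, against −1.93, −1.87 and −1.60 in wild type. It differed most in the double mutant, by 2.27 ± 0.21 (limma adjusted p = 3.13e-04), and also led its difference from clr3Δ, by 1.21 ± 0.26 (adjusted p = 0.219). SPNCRNA.366, SPNCRNA.5255, SPNCRNA.5275, SPNCRNA.5265 and SPNCRNA.5259 came next in the double mutant, with 2.24, 2.24, 2.23, 2.21 and 2.19. SPNCRNA.363 (1.63, adjusted p = 0.105), SPNCRNA.5271 (1.80) and SPNCRNA.5272 (1.81) had the smallest values. From clr3Δ the double mutant differed least at SPNCRNA.5270, SPNCRNA.5271 and SPNCRNA.5272, by 0.26, 0.32 and 0.44. nam6, the only gene of the repeats with a common name, encodes a long noncoding RNA (II: 1609703–1610790, 21 positions). It had −0.99 and −1.18 in fft3Δ, 0.01 in clr3Δ and 0.66 in the double mutant, against −1.32, −1.17 and −1.19 in wild type, and rose by 1.23 ± 0.14 in clr3Δ (limma adjusted p = 0.00349) and by 1.89 ± 0.14 in the double mutant (adjusted p = 1.55e-04).

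**Figure D5:**
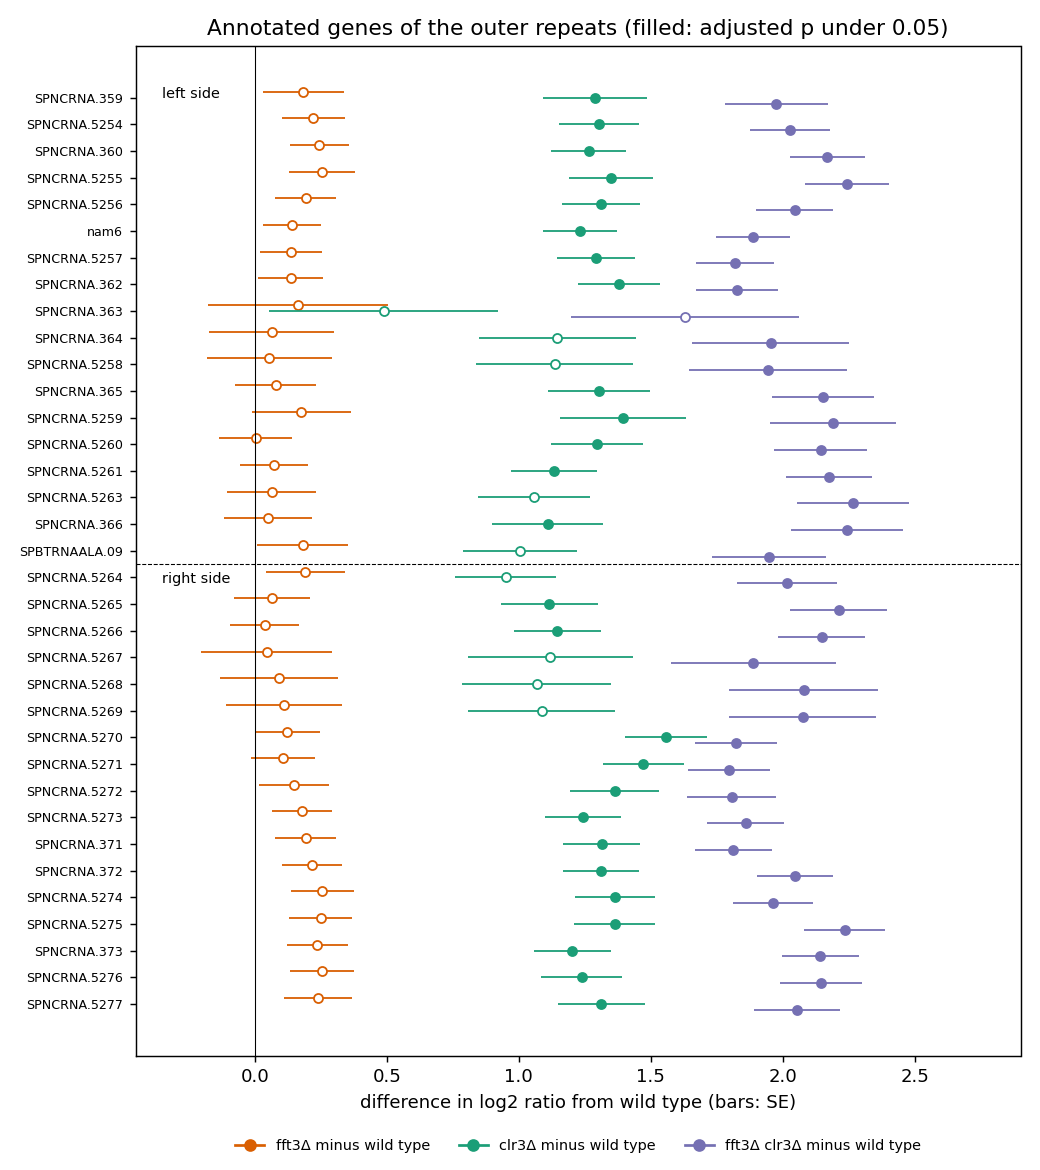
Difference in log2 ratio from wild type at the 35 annotated genes, in order along chromosome II with the left side above the dashed line. Bars are SE and filled points passed limma. Only SPNCRNA.363 failed in the double mutant, and 0 genes passed in fft3Δ.

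tRNA genes flank centromeric heterochromatin in fission yeast and can act as its boundaries. Within 6 kb of the outer edges and inside the repeats 15 tRNA genes were measured, 2 positions each. Positions of the core were not placed on the reference, so tRNA genes there could not be measured. One of them is the identical counterpart of SPBTRNAALA.09 (II: 1629902–1629975, plus strand). SPBTRNAALA.09, inside the left repeats, had −1.42 and −1.94 in fft3Δ, −0.86 in clr3Δ and 0.09 in the double mutant, against −1.98, −1.95 and −1.65 in wild type, and rose by 1.95 ± 0.22 in the double mutant (limma adjusted p = 9.49e-04). The other 14 lay outside the outer edges, and 0 of them passed in any mutant against wild type. Their differences lay between −0.08 and 0.47 in the double mutant, with a median of 0.34, and between −0.18 and 0.40 in clr3Δ, with a median of 0.20. In fft3Δ the median was 0.11 and the highest 0.32.

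The outer repeats were set against neighbouring regions array by array. Relative to the core between the sides, the repeats were higher by 1.40 and 1.42 in fft3Δ, 2.39 in clr3Δ and 2.52 in the double mutant, against 1.13, 1.58 and 1.12 in wild type. That gap was wider than in wild type by 1.12 ± 0.25 in clr3Δ and by 1.25 ± 0.25 in the double mutant. The core itself stood at −1.92 in the double mutant and −2.57 in clr3Δ, against −2.55, −3.04 and −2.42 in wild type. Between the double mutant and clr3Δ the core differed by 0.65 ± 0.42, and the repeats minus the core by 0.14 ± 0.30. Relative to the 10 kb beyond each outer edge the repeats stood at −0.76 and −0.95 in fft3Δ, 0.06 in clr3Δ and 0.77 in the double mutant, against −1.04, −0.99 and −0.91 in wild type. The repeats lay above the flanks on the arrays of clr3Δ and the double mutant and below them on the other 5 arrays. Relative to the last 50 kb of chromosome II, another heterochromatic stretch, the repeats were at −0.91 and −1.19 in fft3Δ, −0.14 in clr3Δ and 0.29 in the double mutant, against −0.87, −0.72 and −0.69 in wild type. Here both fft3Δ arrays lay below all wild-type arrays, and the difference was −0.29 ± 0.13 (exact permutation p = 0.1, the smallest possible). Within slide 1 this was −0.04 and within slide 2 it was −0.47. The subtelomere itself stood 0.46 ± 0.07 higher in fft3Δ than in wild type, and the repeats 0.17 ± 0.13 higher. The subtelomere was also above wild type by 0.59 ± 0.09 in clr3Δ and by 0.95 ± 0.09 in the double mutant.

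Of 34 genes for heterochromatin factors, 2 lay in the stretch of the array placed on the reference, and 0 of these passed in any comparison. clr1, for a subunit of SHREC, and tas3, for a subunit of the RNA interference complex RITS, differed from wild type by −0.13 and −0.15 in the double mutant, −0.04 and −0.05 in clr3Δ, and −0.08 and −0.05 in fft3Δ.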

How the data were processed

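DNA bound to FLAG-tagged H3 and whole-cell extract DNA were hybridised to 7 Agilent arrays of 43993 analysed positions. Per the submitters' processing notes, scans were read with Agilent Feature Extraction (versions 10.7.3.1 and 12.0.3.1 per the file headers). The deposited processed signals are intensities, background-subtracted and dye-normalized per the file headers, with median intensities over all positions between 1126 and 1363. The authors' deposited series table holds log2 ratios of red to green, and the deposited LogRatio column holds log10 ratios; both matched the processed signals (LogRatio within 0.001 for at least 99.85% of positions).

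The scanner's marks for nonuniform spots and population outliers removed 4 to 929 spots per array, and log2 values were centred on each array's median, with no loess. Windows of 1000 bases needed 5 positions and genes 2. limma 3.58.1 in R 4.3.3 fitted 1 mean per genotype (3 residual degrees of freedom) over all windows, genes or positions, with Benjamini-Hochberg adjustment at 0.05; clr3Δ and the double mutant borrow the spread of the replicated genotypes. Region means used the positions kept on each array, with Python 3.11.15, numpy 2.4.6 and scipy 1.17.1. The tests were checked on simulated data. For limma, the simulated windows had independent noise of equal spread and no slide effect. In the data the consensus correlation of arrays on 1 slide was 0.436 in the ratio, 0.450 in input and 0.804 in ChIP. The simulation therefore does not cover slide effects or windows of unlike spread. The number of arrays limits the precision.

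Slides, read from the file headers, pair fft3Δ 1 with wild type 1 and fft3Δ 2 with wild type 2. The deviations of same-slide arrays from their group means correlated at 0.637 and 0.391 across windows. Deviations of the 2 fft3Δ arrays are equal and opposite. The same wild-type arrays therefore gave −0.637 and −0.391 with the fft3Δ array of the other slide, which is no separate evidence. Fits with slide as a block (1 residual degree of freedom when fixed) were an alternative. Others were normexp (offset 50, on median spot signals, since the mean signals named in the plan were not among the columns used), equal spread, loess, quantile, other filters, window sizes and left-out arrays.

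Named windows are the 3 highest and 3 lowest by wild-type level and the 3 largest and 3 smallest per comparison. Named genes are those with a common name or not of the SPNCRNA series, and the 6 largest and 3 smallest per comparison, of which the text prints most. The members and the lists (tRNA genes, heterochromatin factors) were chosen with earlier results of these data known. Copies were counted as exact matches of the central 30 bases of each placed position.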

Additional observations from a re-analysis of the deposited data

How the results depend on the processing

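Of 583 alternative values for 46 results, 496 kept their direction, call and size, 81 moved or crossed the threshold, and 6 reversed. All 6 reversals concern means of fft3Δ against wild type. None of these passed its permutation test, which could not give a p below 0.1. Quantile normalization gave −0.0177 for the mean difference, −0.0198 for the repeats minus the core and −0.0379 for the repeats minus the flanks. Equal spread gave −0.0139 for the repeats minus the core, members found once gave −0.0690 for input, and leaving out wild type 1 gave 0.00635 for left minus right. Apart from these 6, 2 of the interactions printed above, both near 0, changed sign with slide as a block. That of the repeats in ChIP went from 0.11 to −0.07, and that of the repeats minus the core in the ratio from −0.002 to 0.076. The input difference of clr3Δ from wild type also changed sign, from 0.12 over all arrays to −0.15 within slide 3. The cause was not tested.

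Under quantile normalization the differences were 0.92 for clr3Δ, 1.00 for the double mutant against clr3Δ and 1.02 for the interaction. Relative to the core they were 0.90 for clr3Δ and 1.86 for the double mutant. For clr3Δ they were 0.44 relative to the subtelomere, 0.86 relative to the flanks and 0.0369 for left minus right. Loess gave 1.72 for the double mutant against wild type, 0.55 against clr3Δ, 1.495 against fft3Δ and 0.33 for the interaction. It also gave the double mutant 0.98 relative to the core, 0.89 to the subtelomere, 1.45 to the flanks and 0.0345 for left minus right. Equal spread gave the double mutant 1.59 relative to the core and 1.89 to the flanks. Normexp gave 2.18 for the double mutant and 0.0409 for left minus right in clr3Δ.

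Members found once gave 1.01 for clr3Δ, 1.67 for the double mutant and 1.51 for the double mutant against fft3Δ. In ChIP they gave 1.29 for the double mutant and 0.15 against clr3Δ. Relative to the subtelomere they gave 0.87 for the double mutant, and relative to the flanks 0.88 for clr3Δ and 1.45 for the double mutant. Left minus right became 0.50 for clr3Δ and 0.59 for the double mutant, at members that lay at unlike distances from the outer edge on each side. Members with at most 2 copies, chosen after seeing the data, gave 1.05 for clr3Δ, and left minus right of 0.24 for clr3Δ and 0.40 for the double mutant. With slide as a replicate block the ChIP difference was 0.96 for clr3Δ and 1.45 for the double mutant. The block changed no other called mean.

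The repeats held 7 windows of members found once (of 2030 on the array), 18 of at most 2 copies (of 2060), 58 of 500 bases (of 4399) and 16 of 2000 bases (of 1105). For clr3Δ 2, 10, 36 and 13 of these were called higher, of 3, 16, 51 and 21 over the array. For the double mutant 7, 18, 57 and 16 were called, of 17, 38, 136 and 49 over the array, and against fft3Δ 7, 18, 55 and 16, of 9, 24, 77 and 26. Quantile normalization called 11 windows between the double mutant and clr3Δ. At members found once limma called 0 genes and 1 position for clr3Δ, and 3 genes and 16 positions for the double mutant. Leaving out 1 replicated array at a time gave 0 to 29 windows and 0 to 393 positions for clr3Δ. For the double mutant against fft3Δ it gave differences of 1.68 to 1.99, and for the interaction 0.46 to 0.78; left minus right of fft3Δ ran between −0.0123 and 0.00635.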

Other observations

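Across single positions of the outer repeats the ratio ran between −0.64 and 1.70 in the double mutant and between −1.25 and 0.77 in clr3Δ. On the wild-type arrays the lowest positions were at −2.29, −2.43 and −1.82 and the highest at 0.55, 0.27 and −0.55. Across the 245 mirror pairs the median absolute difference between the sides was 0.201 in the double mutant and 0.136 in clr3Δ, against 0.0930, 0.0994 and 0.107 in wild type.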
